A study of Mus musculus with 6 samples.

Results

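The insulin and insulin-like growth factor (IGF) receptors and adaptors were followed in haematopoietic stem cells (HSCs) as 8 genes: the ligand Igf1, the binding protein Igfbp4, the receptors Igf1r, Insr and Igf2r, and the adaptors Irs1, Irs2 and Shc1. They were taken as the rows of the deposited expression table whose symbol equals one of these names, and all 8 were present among its 46959 rows. RNA was sequenced from HSCs of mouse bone marrow sorted as lineage-negative, Sca-1+, c-kit+, CD150+ and CD48- cells, in 3 libraries of control littermates and 3 libraries of MaeaCsf1r-Cre mice, each from about 2000 cells pooled from 2 mice. MaeaCsf1r-Cre mice carry floxed Maea alleles and a Csf1r-driven iCre. Maea encodes a RING subunit of an E3 ubiquitin ligase complex. The labels give adult mice of 8 weeks, and the methods state mice of both genders. No other treatment was given, the genotype of the control littermates beyond "control" is not stated for these libraries, and Csf1r-Cre also recombines in mononuclear phagocytes.

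IGF-1 and insulin bind the related receptor tyrosine kinases encoded by Igf1r and Insr, which can also pair with each other. The active receptors phosphorylate the docking proteins IRS1 and IRS2, which recruit PI3K and so activate AKT and mTORC1, and SHC1, which links them to RAS and MAPK. Igf2r encodes the cation-independent mannose-6-phosphate receptor, which takes up and clears IGF-2 without a kinase of its own, and Igfbp4 encodes a secreted protein that binds IGFs and limits their access to the receptors. In blood formation this pathway is known for its links between growth signals, stem cell quiescence and lymphoid development.

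The values are CPM, the reads of a gene scaled to the size of its library. Low CPM values stand in steps of a single read, which put the library sizes at 32966000 to 39612000 reads in control and at 44157000 to 60935000 in MaeaCsf1r-Cre libraries, so every MaeaCsf1r-Cre library was deeper. A signal of 3 reads came to 0.0492 to 0.0910 CPM, which takes only counting error into account. Maea, the targeted gene, was at 108, 116 and 123 CPM in control and at 76.9, 88.6 and 101 CPM in MaeaCsf1r-Cre replicates 1, 2 and 3, lower in each MaeaCsf1r-Cre library than in each control library. So were 6.06% of all genes tested. The log2 fold change of Maea was -0.39, and it did not pass the test described below (limma, adjusted p = 0.967). The paper reports efficient Maea deletion in stem and progenitor cells of these mice, from surface staining of the protein and PCR on genomic DNA. These are other measures than the CPM of a whole gene, which does not single out the floxed part. The 10 HSC markers fixed as a list were detected in both groups, with a summed level of 1124 to 1803 CPM in control and 781 to 1467 CPM in MaeaCsf1r-Cre libraries. Of these 10, 8 had a negative log2 fold change, as had 60.9% of all genes tested, and 0 passed the test described next. The 6 T cell markers summed to 1.61 to 3.31 CPM in control and to 0.385 to 1.58 CPM in MaeaCsf1r-Cre libraries. The 9 B cell markers summed to 33.8 to 55.4 CPM in control and to 13.9 to 27.0 CPM in MaeaCsf1r-Cre libraries. Neither sum overlapped between the groups. Over all libraries 11 neutrophil or granulocyte markers summed to 81.8 to 312 CPM and 8 erythroid markers to 307 to 877 CPM. The 6 megakaryocyte markers summed to 284 to 1318 CPM.

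Of the 8 genes, 7 reached 1 CPM in 3 or more libraries and were tested, and 0 of the 7 differed between MaeaCsf1r-Cre and control HSCs (limma's moderated test on log2(CPM + 1), Benjamini-Hochberg adjusted over 12955 genes, threshold 0.05). Over all genes tested, 1 passed, or 0.00772%. At an unadjusted p under 0.05 there was 1 of the 7, Igf1, which was lower. Of all genes 3.99% had such a p, and 3.19% had it and were lower. Blocking on the replicate number left these counts at 0 adjusted and 1 unadjusted, but in that fit 13.9% of all genes had an unadjusted p under 0.05, and 10.8% had it and were lower, so 1 of 7 was near the background. The median log2 fold change of the 7 genes was -0.06, and that of all genes tested was also -0.06. Log2 fold changes here are of MaeaCsf1r-Cre over control on the log2(CPM + 1) scale, which understates the change of low genes.

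**Figure D1:**
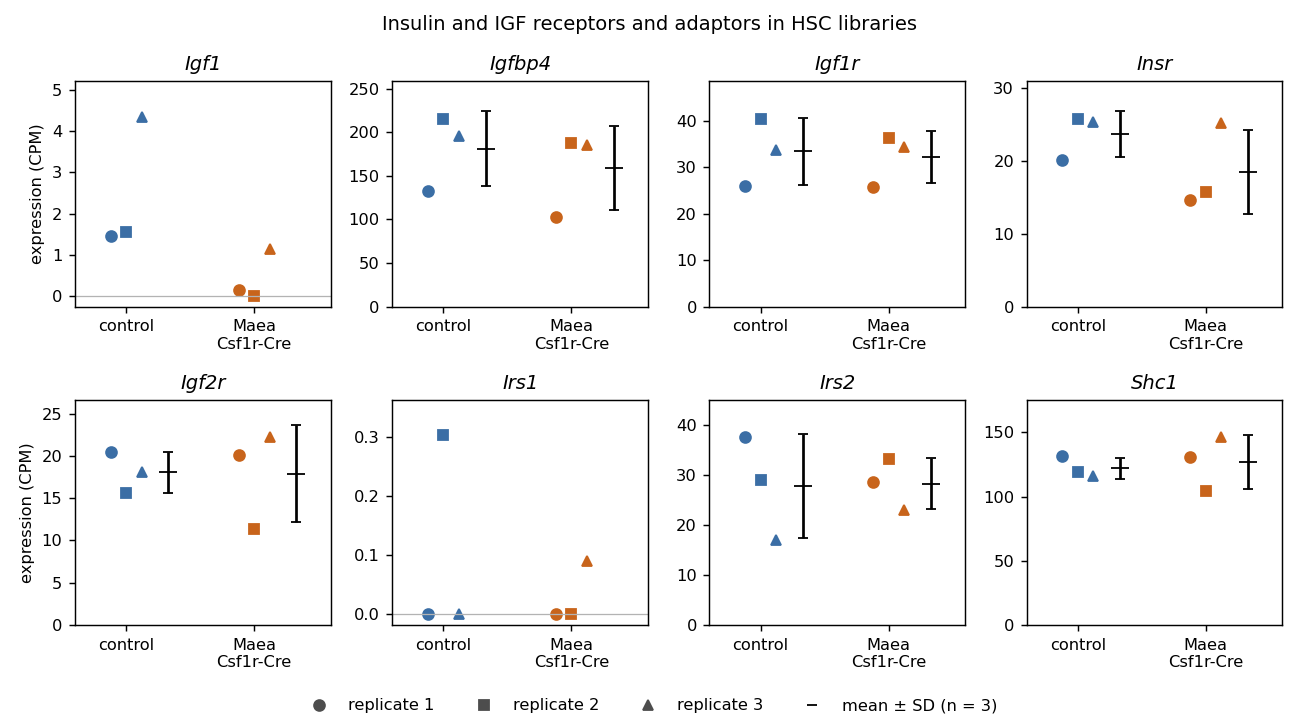
Expression in CPM of the 8 genes in each library, with a panel per gene and marker shapes for the replicate numbers; black bars show the mean and SD of 3 libraries and are left out for Igf1 and Irs1, which were listed at 0 in some libraries. Igf1 is the gene whose groups do not overlap, from 1.46 to 4.35 CPM in control and from 0 to 1.13 CPM in MaeaCsf1r-Cre HSCs.

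Igf1, the ligand, was lower in each MaeaCsf1r-Cre library than in each control library, and was a low transcript in all of them. The gene spans positions 87858265 to 87937042 of chromosome 10 (GRCm38, the build called mm10). It was at 1.46, 1.54 and 4.35 CPM in control replicates 1, 2 and 3, which are 48, 61 and 149 reads. In MaeaCsf1r-Cre replicate 1 it was at 0.148 CPM, or 9 reads, in replicate 2 it was listed at 0, and in replicate 3 it was at 1.13 CPM, or 50 reads. The control libraries were thus high and MaeaCsf1r-Cre replicates 1 and 2 close to nothing, with MaeaCsf1r-Cre replicate 3 just under the lowest control library.

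The exact Poisson 95% intervals for these reads were 1.07 to 1.93 CPM in control replicate 1 and 0.837 to 1.49 CPM in MaeaCsf1r-Cre replicate 3, so the gap between the groups at its narrowest was within counting error. The intervals of the other 2 MaeaCsf1r-Cre libraries ended at 0.280 and 0.0835 CPM, under every control interval. Such intervals cover counting error only, since amplified reads are not independent molecules. The log2 fold change was -1.26 (standard error 0.41, 95% interval -2.20 to -0.31, unadjusted p = 0.0155, adjusted p = 0.967 from limma). With a pseudocount of 0.1 it was -2.85. Groups that did not overlap, with MaeaCsf1r-Cre lower, were found for 1 of the 7 genes and for 6.06% of all genes tested. Igf1 passed the filter on low values through its control libraries, so its place among the tested genes leans to those that differ.

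Macrophages are a known source of IGF-1, so macrophage markers were read in the same libraries, although the sort gated out cells stained for CD11b, Gr-1 and the other lineage markers. Of 16 macrophage markers 11 were tested and 0 passed the threshold. A negative log2 fold change was found for 11 of the 11, beside 60.9% of all genes tested, and groups that did not overlap, with MaeaCsf1r-Cre lower, for 5 of the 11, beside 6.06%. Among these, C1qa, C1qb and C1qc reached 1 CPM in control libraries only, so the tested markers lean to those that differ. The summed level of the 16 was 273 to 342 CPM in control and 117 to 303 CPM in MaeaCsf1r-Cre libraries, most of it from Lyz2, so the sum of MaeaCsf1r-Cre replicate 3 lay within the control range. The markers did not share an order over the libraries, as shown by the following, picked after their values were seen. C1qb, a subunit of complement C1q, was at 8.98, 3.79 and 5.37 CPM in control and at 0.0328, 0 and 0.474 CPM in MaeaCsf1r-Cre replicates 1, 2 and 3. Csf1r was at 7.89, 3.39 and 2.31 CPM in control and at 0.369, 2.18 and 0.141 CPM in MaeaCsf1r-Cre replicates 1, 2 and 3. Vcam1 was at 28.5, 2.60 and 26.7 CPM in control and at 0.525, 0 and 30.0 CPM in MaeaCsf1r-Cre replicates 1, 2 and 3. Among MaeaCsf1r-Cre libraries C1qb and Vcam1 were thus highest in replicate 3, as was Igf1, while Csf1r was highest in replicate 2. Only Vcam1 of these markers overlapped between the groups. Of the other markers, C1qa, C1qc, Adgre1, Mrc1, Cd5l, Spic, Axl, Mertk and Lyz2 were also highest in MaeaCsf1r-Cre replicate 3 within their group. Cd163 and Cd68 were highest there in replicate 2, and Siglec1 in replicate 1. Adgre1, which encodes the macrophage antigen F4/80, was listed at 0 in 3 of 6 libraries. Marco was listed at 0 in 5 of 6 libraries and at 0.0876 CPM, or 3 reads, in control replicate 3. The part of macrophage RNA in the Igf1 values was not tested. In bulk libraries fewer cells of a type and less RNA per cell cannot be told apart.

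**Figure D2:**
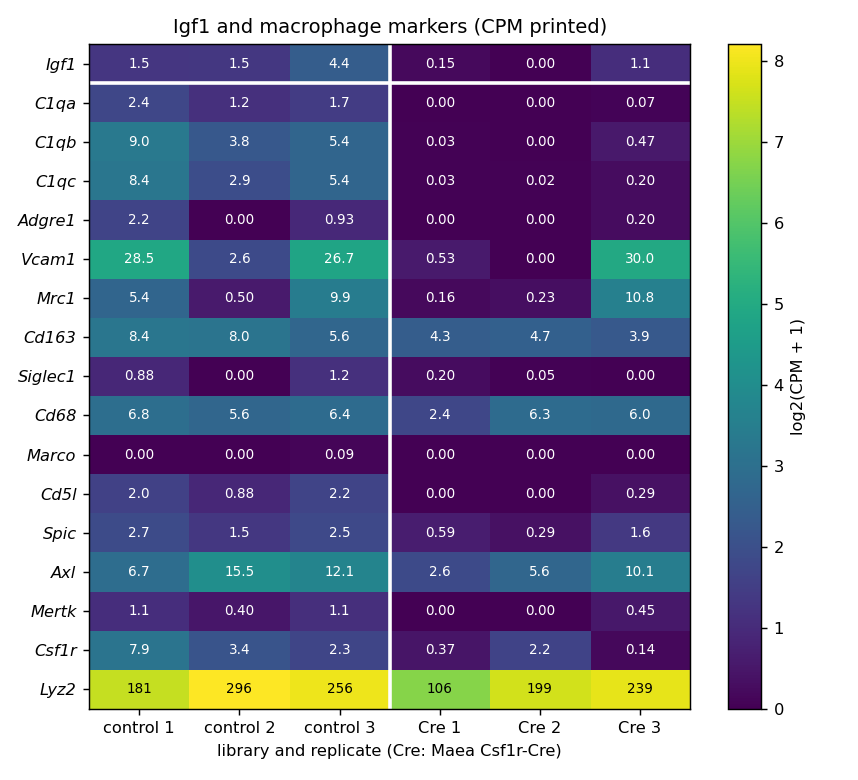
Igf1 in the top row and 16 macrophage markers below it, with 1 column per library, colour for log2(CPM + 1) and the CPM printed in each cell. The C1q genes are far under the control libraries in each MaeaCsf1r-Cre library. Igf1 is so in MaeaCsf1r-Cre replicates 1 and 2, and just under the lowest control library in replicate 3. Vcam1 and Mrc1 in MaeaCsf1r-Cre replicate 3 stand above each control library.

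The tested genes whose log2(CPM + 1) over the 6 libraries was most like that of Igf1 were Gm14420 (Pearson's r = 0.995), Gm13251 (r = 0.987) and Erbb2ip (r = 0.987). With 6 libraries 51 tested genes had an r above 0.95, so the likeness is a description of these libraries. Erbb2ip, which encodes a scaffold protein that binds the receptor ERBB2, was at 112 to 144 CPM in control and at 92.1 to 108 CPM in MaeaCsf1r-Cre HSCs. The other ligands of the pathway were nearly silent. Ins1 and Ins2 were listed at 0 in all 6 libraries. Igf2 was at 0.243, 0.606 and 0.555 CPM in control and at 0.115, 0 and 0.271 CPM in MaeaCsf1r-Cre replicates 1, 2 and 3, under the filter and not tested.

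Igfbp4 was the most abundant of the 8 genes per length of transcript, and its groups overlapped. The gene spans 99041244 to 99054392 of chromosome 11. It was at 132, 216 and 196 CPM in control and at 103, 188 and 186 CPM in MaeaCsf1r-Cre replicates 1, 2 and 3. Replicate 1 was the lowest library of both groups, and each MaeaCsf1r-Cre library lay under the control library of its number. The mean was 181 ± 43.6 CPM in control and 159 ± 48.3 CPM in MaeaCsf1r-Cre HSCs (SD, n = 3 each), so the means were closer than either SD. The log2 fold change was -0.21 (standard error 0.27, 95% interval -0.84 to 0.42, adjusted p = 0.967 from limma), and it turned to 0.073 without MaeaCsf1r-Cre replicate 1. Igf1, Igfbp4 and Insr were lower in 3 of 3 same-numbered pairs, as were 23.5% of all genes tested.

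Per kb of exon, Igfbp4 held 58.0 to 99.6% of the summed level of the 7 genes Igfbp1 to Igfbp7 in a library. Its share was lowest in replicate 3 of both groups, at 71.3% in control and 58.0% in MaeaCsf1r-Cre HSCs. The rest there was mostly Igfbp7, a secreted protein made by vascular cells among others, which is named because of these values. Igfbp7 was at 6.04, 0.759 and 19.9 CPM in control and at 0.279, 0.159 and 29.3 CPM in MaeaCsf1r-Cre replicates 1, 2 and 3. It was thus highest in replicate 3 of each group. In replicates 1 and 2 the MaeaCsf1r-Cre value lay under the control value of the same number. The 6 endothelial markers summed to 104, 59.6 and 202 CPM in control and to 35.5, 48.5 and 268 CPM in MaeaCsf1r-Cre replicates 1, 2 and 3, again highest in replicate 3 of each group. Their part in the share of Igfbp4 was not tested.

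**Figure D3:**
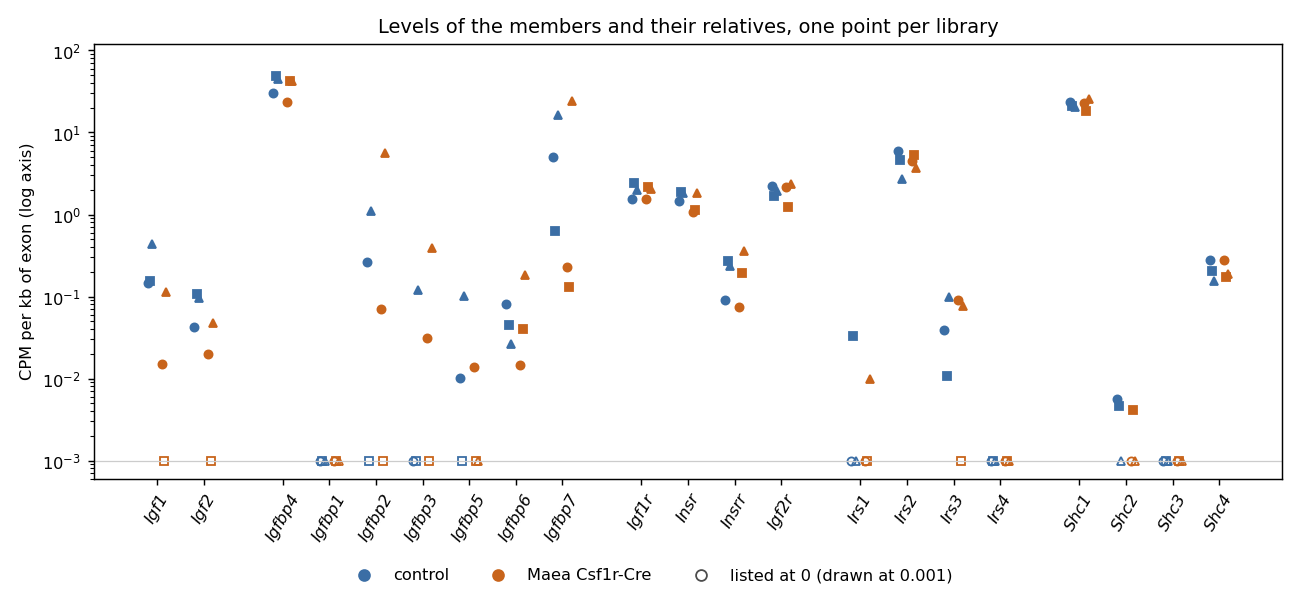
CPM per kb of exon on a log axis for the 8 genes and their closest relatives, 1 point per library, with shapes for replicates 1 (circle), 2 (square) and 3 (triangle) and open symbols at the foot of the plot for values listed at 0. Igfbp4, Shc1 and Irs2 stand above the other members of their families in each library, while Igf1r, Insr and Igf2r lie close together between 1.06 and 2.41 CPM per kb.

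Among the receptors, the groups overlapped for Igf1r over almost their whole range, and for Insr 2 of 3 MaeaCsf1r-Cre libraries lay under the control libraries. Igf1r lies on chromosome 7 from 67952827 to 68233668. It was at 25.9, 40.5 and 33.8 CPM in control and at 25.8, 36.3 and 34.5 CPM in MaeaCsf1r-Cre replicates 1, 2 and 3. Replicate 1 was the lowest and replicate 2 the highest in each group. Its log2 fold change was -0.05 (standard error 0.21, 95% interval -0.52 to 0.43, adjusted p = 0.984 from limma), which turned to 0.028 after rescaling by median ratios and to 0.15 after correction for transcript length.

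Insr lies on chromosome 8 from 3122061 to 3279617. It was at 20.1, 25.8 and 25.3 CPM in control and at 14.6, 15.7 and 25.2 CPM in MaeaCsf1r-Cre replicates 1, 2 and 3. MaeaCsf1r-Cre replicates 1 and 2 were under every control library, and replicate 3 stood within the control range, level with its same-numbered control. The mean was 23.8 ± 3.17 CPM in control and 18.5 ± 5.83 CPM in MaeaCsf1r-Cre HSCs (SD, n = 3 each), and the gap between the means was under the larger SD. For Insr limma gave -0.38 on the log2 scale (standard error 0.23, 95% interval -0.91 to 0.15, adjusted p = 0.967). It was -0.61 without MaeaCsf1r-Cre replicate 3 and -0.24 without MaeaCsf1r-Cre replicate 1. Insr has a long transcript, with 13746 bp of exon in the annotation, and log2 fold change fell with exon length over the 12473 tested genes of known length (Spearman's rho = -0.263 over genes, which do not count as replicates). Corrected for length, this value was -0.19.

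The balance of the kinase receptors was compared within each library, where the library scaling cancels. The ratio of Igf1r to Insr CPM was 1.29, 1.57 and 1.34 in control and 1.77, 2.31 and 1.37 in MaeaCsf1r-Cre replicates 1, 2 and 3. It was higher in each MaeaCsf1r-Cre library than in the control library of its number, but MaeaCsf1r-Cre replicate 3 was under control replicate 2. On the log2(CPM + 1) scale the ratio was 0.46 ± 0.15 in control and 0.79 ± 0.36 in MaeaCsf1r-Cre HSCs (SD, n = 3 each), a difference of 0.33 (two-sided exact permutation p = 0.2, and groups of 3 cannot give a p under 0.1). Without MaeaCsf1r-Cre replicate 2 the difference was 0.15, and without MaeaCsf1r-Cre replicate 3 it was 0.51. Per kb of exon, Igf1r held 49.2 to 52.8% of the summed level of Igf1r, Insr and the related Insrr in control and 48.4 to 61.8% in MaeaCsf1r-Cre libraries. The values count whole genes and do not separate the splice forms of Insr.

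Igf2r lies on chromosome 17 from 12682406 to 12769664 and showed more spread among MaeaCsf1r-Cre than among control libraries. It was at 20.5, 15.6 and 18.1 CPM in control and at 20.1, 11.4 and 22.2 CPM in MaeaCsf1r-Cre replicates 1, 2 and 3. The MaeaCsf1r-Cre libraries held both the lowest and the highest value, and replicate 2 was the lowest of each group. The log2 fold change was -0.06 (standard error 0.26, 95% interval -0.65 to 0.54, adjusted p = 0.984 from limma), and it turned to 0.015 after rescaling by median ratios and to 0.10 after correction for length. Airn, the antisense RNA that starts within Igf2r, was listed at up to 0.935 CPM and shares no exon sequence with Igf2r in the annotation.

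**Figure D4:**
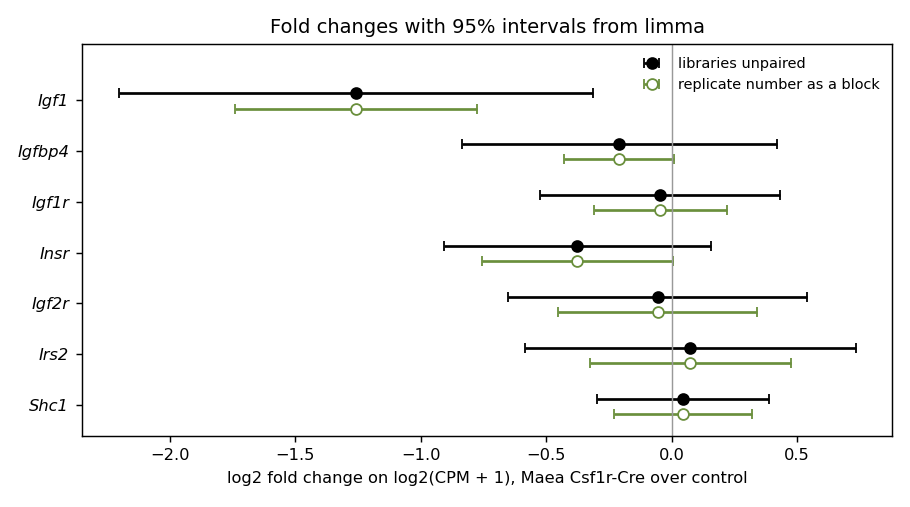
Log2 fold change on log2(CPM + 1) of MaeaCsf1r-Cre over control HSCs for the 7 tested genes, with 95% intervals from limma for unpaired libraries (black) and blocked on the replicate number (green). The unpaired interval of Igf1 lies under 0, from -2.20 to -0.31, before any adjustment for multiple tests, and the intervals of the other 6 genes include 0 in both fits.

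Of the insulin receptor substrates, HSCs of both groups expressed Irs2 and hardly any Irs1. Irs2 lies on chromosome 8 from 10984681 to 11008458. It was at 37.6, 29.1 and 16.9 CPM in control and at 28.5, 33.2 and 23.0 CPM in MaeaCsf1r-Cre replicates 1, 2 and 3, with replicate 3 the lowest of each group. The mean was 27.9 ± 10.4 CPM in control and 28.3 ± 5.10 CPM in MaeaCsf1r-Cre HSCs (SD, n = 3 each). The log2 fold change was 0.07 (standard error 0.28, 95% interval -0.58 to 0.73, adjusted p = 0.982 from limma), and it turned to -0.23 without control replicate 3 and to -0.046 without MaeaCsf1r-Cre replicate 2.

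Irs1, on chromosome 1 from 82233101 to 82291416, was listed at 0 in 4 of 6 libraries and was not tested. It reached 0.303 CPM, or 12 reads, in control replicate 2 and 0.0902 CPM, or 4 reads, in MaeaCsf1r-Cre replicate 3. In the libraries at 0 the exact Poisson 95% interval ended at 0.0605 to 0.112 CPM. The opposite strand holds Gm9747, whose exons overlap those of Irs1 over 2822 bp and which was listed at 0 in every library. The library kit is not described as keeping strand, so reads from this overlap cannot be told apart, and its part in the low value of Irs1 was not tested. Irs2 took 96.4 to 100% of the summed level per kb of Irs1, Irs2, Irs3 and Irs4, and Irs4 was listed at 0 throughout. The difference between the groups in the log2(CPM + 1) ratio of Irs2 to Irs1, which depends on the pseudocount because of the zeros, was 0.16 (exact permutation p = 0.8).

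Shc1, the other adaptor, was the steadiest of the 8 genes in control HSCs. The gene spans 89418443 to 89430027 of chromosome 3. It was at 131, 119 and 116 CPM in control and at 131, 104 and 146 CPM in MaeaCsf1r-Cre replicates 1, 2 and 3, and again MaeaCsf1r-Cre libraries held the lowest and the highest value. The mean was 122 ± 8.20 CPM in control and 127 ± 21.3 CPM in MaeaCsf1r-Cre HSCs (SD, n = 3 each). The log2 fold change was 0.05 (standard error 0.15, 95% interval -0.30 to 0.39, adjusted p = 0.981 from limma), so the interval runs from a fold of 0.814 to one of 1.31, and it turned to -0.063 without MaeaCsf1r-Cre replicate 3. Of the Shc family Shc1 held 98.8 to 99.3% of the summed level per kb.

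Per kb of exon the order over all 6 libraries was Igfbp4 at 38.6 ± 9.72, Shc1 at 22.1 ± 2.60, Irs2 at 4.44 ± 1.16, Igf1r at 1.95 ± 0.35, Igf2r at 1.93 ± 0.42 and Insr at 1.54 ± 0.37 CPM per kb (SD, n = 6, both groups), followed by Igf1 and Irs1. Igfbp4 stood above 90.2%, Shc1 above 82.4% and Irs2 above 43.4% of the tested genes of known length on that scale, and Igf1r, Igf2r and Insr above 24.8, 24.6 and 20.5% of them. Igf1r was above Igf2r in 3 of 6 libraries and Igf2r above Insr in 5 of 6, and these neighbours did not differ beyond their spread. Igfbp4 was above Shc1 in 6 of 6 libraries although their ranges over the libraries overlapped, and between Shc1 and Irs2, Irs2 and Igf1r, and Insr and Igf1 the ranges did not overlap. Exon length was taken over all annotated transcripts, so a gene expressed from a short form is set too low.

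The other genes of the pathway were read from a list of 96, of which 73 were tested. None passed the threshold, 0 of 73 higher and 0 lower, while at an unadjusted p under 0.05 there were 1 higher and 4 lower. With the replicate block 0 passed and the unadjusted counts were 2 higher and 9 lower, where 13.9% of all genes had such a p in that fit in either direction. Of the 73, 51 had a negative log2 fold change, as had 60.9% of all genes tested, and the median was -0.13 beside -0.06 for all genes. With median ratio scaling the median was -0.058 beside 0.012 for all genes. With length correction it was -0.0038 beside 0.034, so it lay closer to 0 in both alternatives. The groups did not overlap for 6 of the 73, with 5 lower and 1 higher, and for 8.55% of all genes tested, 6.06% lower and 2.49% higher.

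Genes grouped in the list as inhibitors of the receptors were 3 of these 6, with 1 higher and 2 lower, and 14 of the 73 tested. Socs3, a cytokine-induced inhibitor that also binds the insulin receptor and IRS proteins, was at 10.1, 11.3 and 4.59 CPM in control and at 17.4, 39.3 and 18.0 CPM in MaeaCsf1r-Cre replicates 1, 2 and 3, higher in each MaeaCsf1r-Cre library. Its difference on the log2 scale was 1.40 with a standard error of 0.40 (limma, adjusted p = 0.967). Grb10, an adaptor that binds both kinase receptors and inhibits them, was at 63.2, 70.7 and 88.6 CPM in control and at 43.2, 47.7 and 63.0 CPM in MaeaCsf1r-Cre replicates 1, 2 and 3. Every MaeaCsf1r-Cre value of Grb10 was under the lowest control value, with replicate 3 the highest of each group. Nedd4, a ubiquitin ligase that can be brought to Igf1r by GRB10, was at 466, 521 and 563 CPM in control and at 377, 343 and 453 CPM in MaeaCsf1r-Cre replicates 1, 2 and 3. The log2 fold changes were -0.53 for Grb10 and -0.41 for Nedd4, each with an adjusted p of 0.967 from limma. Corrected for length, they were -0.37 for Grb10 and -0.24 for Nedd4, and that of Socs3 was 1.47.

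The remaining 3 were Lrp1, Pdpk1 and Araf, all lower. Lrp1, an endocytic receptor, was at 3.34, 3.69 and 1.78 CPM in control and at 0.935, 0.747 and 0.699 CPM in MaeaCsf1r-Cre replicates 1, 2 and 3, and its log2 fold change was -1.10. Like Igf1, Lrp1 passed the filter on low values through its control libraries, so its place among the tested genes leans to those that differ. Pdpk1, the kinase that activates AKT, was at 45.5 to 48.7 CPM in control and at 39.4 to 44.0 CPM in MaeaCsf1r-Cre HSCs. Araf, a RAF kinase, was at 51.4 to 53.7 CPM in control and at 40.6 to 50.9 CPM in MaeaCsf1r-Cre HSCs. The differences of Pdpk1 and Araf were small, with log2 fold changes of -0.17 and -0.16. By role, a negative log2 fold change was found for 11 of the 13 tested adaptors and 12 of the 16 tested PI3K and AKT genes. It was also found for 7 of the 14 tested genes listed as inhibitors of the receptors, beside 60.9% of all genes tested. Differences between roles were not tested.

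**Figure D5:**
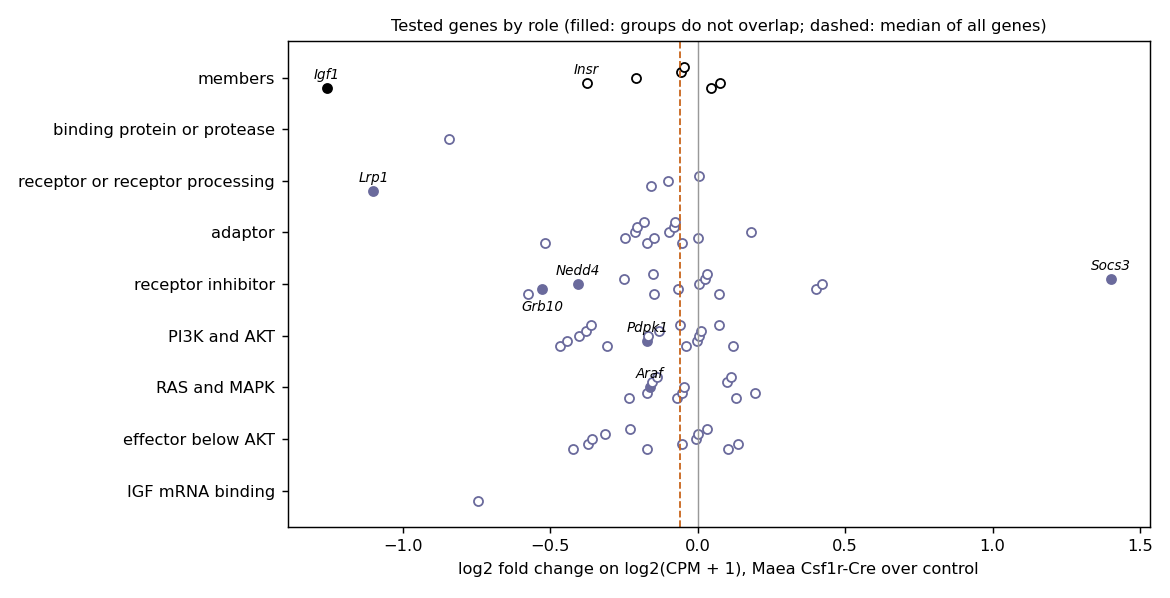
Log2 fold change on log2(CPM + 1) of MaeaCsf1r-Cre over control HSCs for each tested gene by role, with filled points for genes whose groups do not overlap and a dashed line at the median of all genes tested, -0.06. Igf1 and Lrp1 lie farthest to the left and Socs3, at 1.40, farthest to the right.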

How the data were processed

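RNA from 3 control and 3 MaeaCsf1r-Cre HSC libraries was amplified with SMART-Seq v4, made into libraries with Nextera XT and sequenced as single-end reads. The authors trimmed reads with Trim Galore, aligned them to mm10 with STAR 2.5.3a, quantified them to Ensembl release 83 and used Partek Flow for normalisation. Each deposited column holds the CPM of 1 library by gene symbol, with 0.0001 added to each value by the authors, which was taken off here. The listed genes summed to 75.2 to 80.2% of the scaling total.

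Reads behind the scaling were computed from the steps between values under 0.5 CPM and refined on values under 5 CPM. In a library 79.8 to 82.4% of values under 0.5 CPM lay within 0.1 of a whole read, so counts were not recovered and no count test was used. Values above 0 of Igf1 (5 of 5) and Irs1 (2 of 2) were whole reads.

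The 12955 genes that reached 1 CPM in 3 or more libraries entered limma 3.58.1 on log2(CPM + 1) in R 4.3.3 (mean-variance trend, two-sided, Benjamini-Hochberg adjustment, threshold 0.05), fitting MaeaCsf1r-Cre against control. Where nothing says that same-numbered samples share a litter or sort, the p-values measure the spread between these libraries. After subtracting group means, same-numbered libraries were correlated over genes (Pearson's r of 0.627, 0.523 and 0.397 for replicates 1, 2 and 3), which is the ground for also fitting the replicate number as a block. Ratios were compared by an exact permutation test of libraries.

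Positions and exon lengths came from GENCODE M21 on GRCm38, later than the authors' annotation, and 44119 of 46959 rows found a gene. The alternatives changed the pseudocount (to 0.1), the filter (to none or 10 CPM), the scaling (median ratios or quantiles), the trend (none) and the design (replicate block, or 1 library fewer), or took out a loess trend on length (span 0.5) with or without the block. The procedure was tested on simulated data. The rule for genes named one by one took the 8 members, all ligands, the 3 tested genes most like Igf1, up to 12 pathway genes whose groups do not overlap, and Maea and Csf1r. Outside the rule, the macrophage markers other than Csf1r, and Igfbp7, Ide, Furin and Igf2bp2, were named after their values were seen. Close relatives of members and genes overlapping them were named beside them. The members, lists and tests were chosen with earlier results of these data known. Tables and figures were made in Python 3.11.15 (pandas 2.3.3, scipy 1.17.1, matplotlib 3.10.9).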

Additional observations from a re-analysis of the deposited data

How the results depend on the processing

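Over all genes tested the count past the threshold was 1, and it was 0 with a filter at 10 CPM (302 at an unadjusted p under 0.05), 12 when length correction and replicate block were combined, and 0 to 3 when each library was left out, 0 without control replicate 2 or 3 and 3 without MaeaCsf1r-Cre replicate 3. The counts of members and of other pathway genes past the threshold stayed at 0 in all 15 alternatives. Igf1 kept its direction in 14 of 14, with log2 fold changes of -2.85 to -0.89 and adjusted p of 0.141 (with the block) to 0.99998 from limma, and at 10 CPM it had no value. Insr kept its direction in 15 of 15, from -0.61 to -0.19. Directions of the near-level genes turned. With median ratio scaling Igf1r was at 0.028 and Igf2r at 0.015, with quantile normalization at 0.016 and 0.049, and with length correction, alone or with the block, at 0.15 and 0.10. Leaving out each library gave -0.21 to 0.10 for Igf1r (positive without control replicate 2 or MaeaCsf1r-Cre replicate 1), -0.23 to 0.22 for Igf2r (positive without control replicate 1 or MaeaCsf1r-Cre replicate 2), -0.42 to 0.073 for Igfbp4, -0.23 to 0.32 for Irs2 and -0.063 to 0.18 for Shc1. The cause was not tested. The difference in the Igf1r to Insr ratio stayed positive in 9 of 9 alternatives, from 0.15 to 0.51, with the exact permutation p at 0.25 in the replicate block, the smallest that 3 pairs allow. The Irs2 to Irs1 difference ranged from -0.084 (without control replicate 3) to 0.47 when each library was left out, and length correction could not be run for it since Irs1 was not tested. The replicate block changed no other call. Low counts limit Igf1 and Irs1, at or near a signal of 3 reads in some libraries. For Igf1 these were MaeaCsf1r-Cre replicates 1 and 2, which were deeper than the control libraries.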

Other observations

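The following genes of the pathway were picked after their values were seen. Ide, the insulin-degrading enzyme, was at 170, 142 and 145 CPM in control and at 196, 118 and 123 CPM in MaeaCsf1r-Cre replicates 1, 2 and 3, highest in replicate 1 of each group. Furin, a protease that cleaves the receptor precursors, was at 55.3 to 66.5 CPM in control and at 47.6 to 60.7 CPM in MaeaCsf1r-Cre HSCs. Igf2bp2, an RNA-binding protein with Igf2 mRNA among its targets, was at 2.82, 4.92 and 8.41 CPM in control and at 1.23, 2.29 and 5.17 CPM in MaeaCsf1r-Cre replicates 1, 2 and 3, lower in each same-numbered pair but with overlapping groups (log2 fold change -0.75, standard error 0.45, adjusted p = 0.967 from limma).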
